A study of Homo sapiens with 6 samples.

Results

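Cyclins and cyclin-dependent kinases were followed in the Hey and SKOV3 ovarian cancer cell lines through the formation of polyploid giant cancer cells (PGCCs) and the growth of their daughter cells. The 10 genes are the A-type and B-type cyclins CCNA2, CCNB1 and CCNB2, the D-type cyclins CCND1, CCND2 and CCND3, the E-type cyclins CCNE1 and CCNE2, and the kinases CDK1 and CDK2. They were chosen by symbol, with no measured value in the rule, and all 10 are among the 59008 gene symbols of the deposited table of TPM, the salmon measure of transcript abundance, scaled for transcript length and for the total of each library. The mean TPM of all 10 was at least 1 over the 6 libraries, as did 14988 genes in all, which are the genes tested below. CCND2 passed this minimum through Hey, since its TPM in SKOV3 was at most 0.0834.

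There was 1 library for each cell line and state. Parental Hey and SKOV3 cells were untreated, the PGCC libraries came from cells exposed to 500 nM paclitaxel for 16 hours and left to recover for 3 days, and the daughter libraries came from cells exposed in the same way and left for 30 days, in each line a culture titled clone 1. The title of the SKOV3 PGCC library gives day 7 where its treatment label gives 3 days, so its time is uncertain. The lines were grown in different media, Hey in MEM Eagle and SKOV3 in RPMI-1640, so line and medium cannot be told apart, and the sources used here do not state whether giant cells were separated from other surviving cells. The columns summed to between 911825 and 920497 TPM, and mitochondrial genes took 2.64%, 12.3% and 7.60% of the parental, PGCC and daughter libraries of Hey and 9.17%, 7.37% and 14.8% of those of SKOV3. This share thus differed between the states compared, and its part in the changes below was not tested beyond the setting without these genes. TPM holds no read counts, so the depth per gene is unknown and no counting error is given. The epithelial keratins KRT8 and KRT18 had a TPM of at least 220 in every library and PAX8, a Müllerian lineage factor, of at least 54.7, while PTPRC, which marks leukocytes, did not exceed 0.425. CD68, a lysosomal protein of macrophages in the same set of 4 markers, was at 46.3, 69.3 and 45.6 TPM in Hey and at 17.1, 20.03 and 0.840 TPM in SKOV3, and its part in the changes was not tested. EPCAM, another epithelial marker, was at most 1.43 TPM in Hey, and MUC16, which encodes the ovarian cancer marker CA125, was at most 1.59 TPM in any library. CDH5, an endothelial cadherin, was measured at 33.2 to 48.5 TPM in the Hey libraries, where the other endothelial markers were at most 0.272 TPM.

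Cyclins are the regulatory subunits that switch on cyclin-dependent kinases, and their stepwise synthesis and destruction orders the cell cycle. D-type cyclins act with CDK4 and CDK6 in G1 and answer to growth signals, E-type cyclins act with CDK2 at the entry into S phase, cyclin A2 serves CDK2 and then CDK1 from S phase to early mitosis, and the B-type cyclins drive mitosis with CDK1. Transcription of the S-phase and mitotic members is restricted to dividing cells, through E2F factors at the G1/S boundary and through the NF-Y, MYBL2 and FOXM1 factors in G2. Paclitaxel stabilizes microtubules and stops cells in mitosis, and cells that leave this arrest without dividing become polyploid. In bulk RNA, fewer cells in a cycle phase and less RNA per cell cannot be told apart, and TPM gives shares of the library, not RNA per giant cell.

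The promoters of 4 members called lower in Hey PGCCs (below) are shown first, with that of CCNE1, which was not called there, for comparison. RefSeq promoter entries (GRCh38.p14, from 250 bases before to 50 bases after each start) were found for 6 of the 10 members, in 9 entries, and not for CCND1, CCND2, CCNE2 or CDK2. Each was searched on both strands for CCAAT, the letters of the NF-Y box. TTTGAA and TTCGAA, some of the spellings of the cell-cycle homology region of G2 genes, were searched too, as were the E2F-type letters TTTCCCGC, TTTCGCGC, TTTGCCGC and TTTGGCGC. The 180 bases before the start are printed in the direction of transcription, with these letters in capitals (ATTGG is CCAAT on the opposite strand). The stretches are chr4:121823884-121824063 (minus strand) for CCNA2, chr5:69166970-69167149 (plus) for CCNB1, chr15:59104966-59105145 (plus) for CCNB2, chr10:60778151-60778330 (plus) for CDK1 and chr19:29811811-29811990 (plus) for CCNE1. The stretches of CCNB1 and CCNB2 end within the first exon that GENCODE annotates, and the others lie upstream of the gene.
CCNA2: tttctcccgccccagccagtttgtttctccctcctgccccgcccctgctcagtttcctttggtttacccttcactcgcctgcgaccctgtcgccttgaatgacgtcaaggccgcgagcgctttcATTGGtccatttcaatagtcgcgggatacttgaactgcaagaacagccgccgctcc
CCNB1: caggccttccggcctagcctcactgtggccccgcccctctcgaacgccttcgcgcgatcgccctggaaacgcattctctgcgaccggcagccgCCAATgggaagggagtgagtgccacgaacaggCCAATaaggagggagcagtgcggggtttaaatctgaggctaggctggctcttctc
CCNB2: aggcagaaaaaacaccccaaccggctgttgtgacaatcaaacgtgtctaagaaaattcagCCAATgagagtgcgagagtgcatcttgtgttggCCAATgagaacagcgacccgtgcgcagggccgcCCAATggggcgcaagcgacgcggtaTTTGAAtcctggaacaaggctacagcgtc
CDK1: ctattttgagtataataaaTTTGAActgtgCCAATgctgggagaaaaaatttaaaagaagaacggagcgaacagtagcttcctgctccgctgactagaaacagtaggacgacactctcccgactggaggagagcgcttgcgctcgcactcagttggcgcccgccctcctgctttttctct
CCNE1: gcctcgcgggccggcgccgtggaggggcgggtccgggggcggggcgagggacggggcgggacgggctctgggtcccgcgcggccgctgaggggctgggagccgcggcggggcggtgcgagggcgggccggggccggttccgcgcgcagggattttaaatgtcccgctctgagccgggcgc

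CCNB2 held CCAAT at 4 places in its entry, the first bases lying at -244, -120, -87 and -54 from the start, and TTTGAA at -29. CCNB1 held CCAAT at -87 and -55, and CCNA2 held it on the opposite strand at -56. CDK1 has 2 RefSeq starts. The upstream entry held TTTGAA at -161 and CCAAT at -150, and the downstream entry held CCAAT at -78 and -46 on the opposite strand and TTTGAA at -69 and -13 and, on the opposite strand, at 10. TTTCGCGC stood at -128 of the downstream CDK1 entry and at 20 of the upstream one, and in no entry of another member. None of the letters searched were found in the CCNE1 entry, and 2 of the 3 CCND3 entries held CCAAT, at -136 and, on the opposite strand, at -64. CCND3, whose entries are not printed, was like CCNE1 not called in Hey PGCCs, so the members not called there differed in these letters. Over all 35116 promoter entries, 34.6% held CCAAT, 10.8% held it at 2 or more places, 0.991% at 4 or more, 15.2% held TTTGAA and 0.515% held TTTCGCGC. These are matches of letters, and binding was not measured. Other spellings of the cell-cycle homology region were not searched, so a promoter without TTTGAA or TTCGAA is not shown to lack this region. Other spellings of E2F sites were not searched either, so an entry without the 4 E2F-type letters, such as that of CCNE1, is not shown to lack such sites.

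CDK1, the kinase of mitotic entry (chromosome 10, 60778331 to 60794852, GENCODE release 44 on GRCh38, as for all positions), stood at 151 TPM in the parental library of Hey, 47.2 TPM in its PGCC library and 167 TPM in its daughter library. The SKOV3 levels in the same order were 279, 75.6 and 163 TPM. PGCCs were thus the lowest library of both lines, 3.20-fold below parental cells in Hey and 3.69-fold in SKOV3 by TPM. A change is given below as the log2 difference, taken on log2(TPM + 1) between libraries of the same line, and is called at a size of at least 1, that is 2-fold. For CDK1 the log2 difference of PGCCs to parental cells came to -1.66 (Hey) and -1.87 (SKOV3).

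CCNA2, which encodes cyclin A2 (chromosome 4, 121816444 to 121823883), showed the deepest fall of the members in Hey PGCCs. From parental to PGCC to daughter library its TPM was 63.8, 9.84 and 68.4 in Hey, and 128, 48.4 and 90.3 in SKOV3. By TPM, PGCCs were 6.48-fold lower than parental cells in Hey and 2.65-fold lower in SKOV3, with log2 differences of -2.58 and -1.39. The daughter library lay near the parental library in Hey, and between PGCCs and parental cells in SKOV3.

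The B-type cyclins were called lower in Hey PGCCs and not in SKOV3 PGCCs. CCNB1, which encodes the main mitotic cyclin (chromosome 5, 69167135 to 69178245), measured 235 TPM in the parental, 55.9 TPM in the PGCC and 342 TPM in the daughter library of Hey. SKOV3 had 623, 388 and 224 TPM, so that there the daughter library, not the PGCC library, was the lowest. CCNB2, which encodes the second mitotic B-type cyclin (chromosome 15, 59105126 to 59125045), had a TPM of 111, 22.8 and 89.6 in Hey and of 196, 128 and 168 in SKOV3. The log2 differences between PGCCs and parental cells were -2.05 for CCNB1 and -2.23 for CCNB2 in Hey, and -0.68 and -0.61 in SKOV3. With 1 library on each side, the difference between the lines was not tested.

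**Figure D1:**
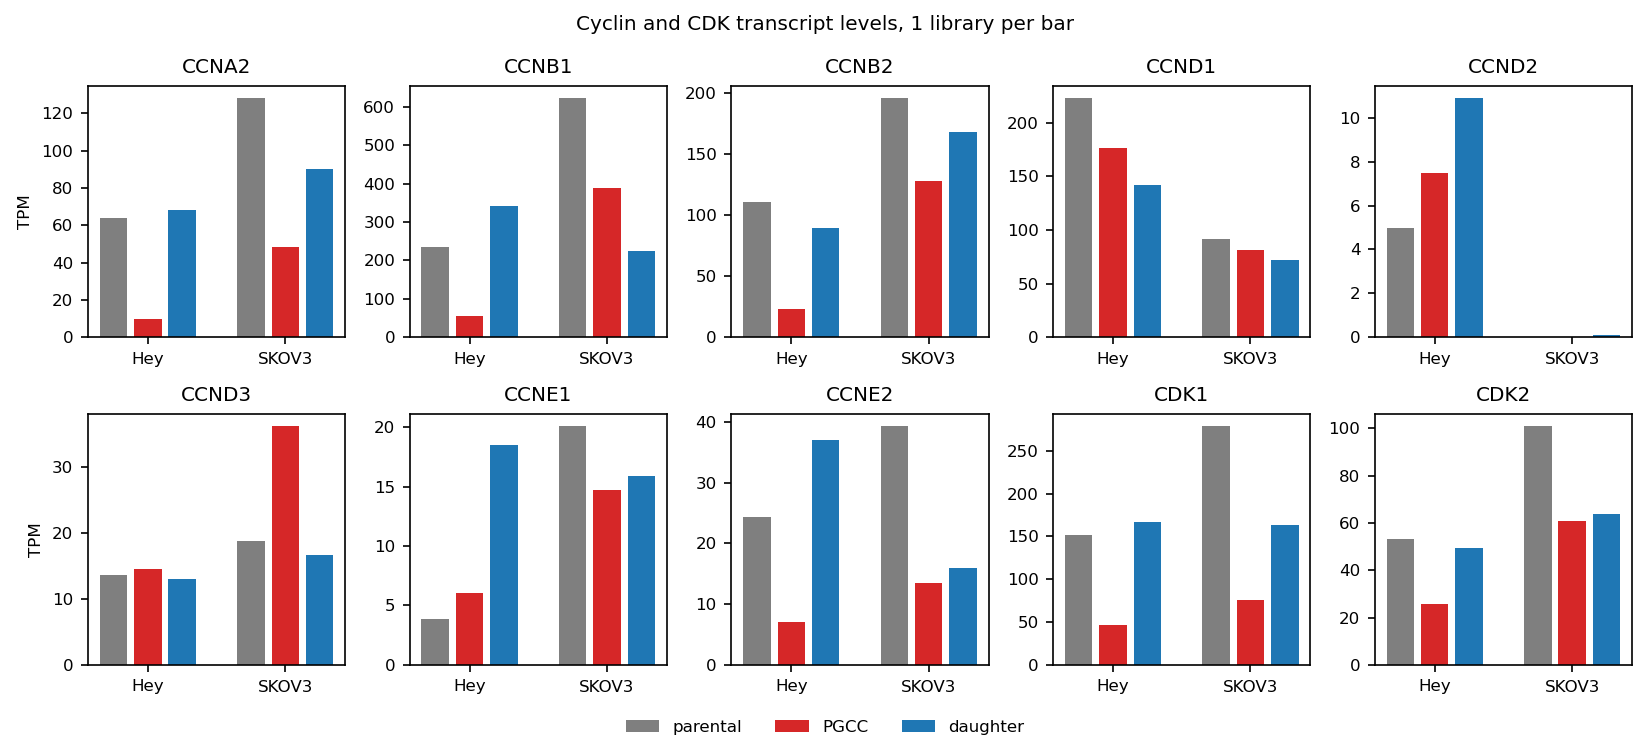
TPM of each of the 10 members (vertical axes, linear from 0 and scaled per gene) in the 6 libraries, with 1 bar for each library and no error bars because no condition was repeated. In both lines the red PGCC bar of CDK1, CDK2, CCNA2, CCNB2 and CCNE2 is the lowest, while CCND1 differs more between the lines than between states and CCND2 is near 0 in SKOV3.

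CDK2, the partner of E-type cyclins and cyclin A2 (chromosome 12, 55966781 to 55972789), moved less than CDK1. Parental, PGCC and daughter libraries had 53.3, 25.8 and 49.5 TPM in Hey, and 101, 60.8 and 63.7 TPM in SKOV3. In Hey PGCCs its log2 difference to parental cells was -1.02, just past the 2-fold threshold and short of it under quantile normalization (-0.90) or without mitochondrial genes (-0.87). In SKOV3 it was -0.72. The TPM of CDK1 per CDK2 ran from 2.84 (parental) to 1.83 (PGCC) to 3.38 (daughter) in Hey, and from 2.76 to 1.24 to 2.56 in SKOV3, lowest in the PGCCs of both. In SKOV3 PGCCs the GC and length trend described below was -0.74 at CDK1 and -0.08 at CDK2. Its part in this ratio was not tested.

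The E-type cyclins went different ways. CCNE2 (chromosome 8, 94879770 to 94896678), the cyclin E2 gene, was present at 24.3 TPM in parental, 7.04 TPM in PGCC and 36.9 TPM in daughter RNA of Hey. Its SKOV3 levels were 39.4, 13.5 and 15.9 TPM, with the daughter cells close to the PGCCs. In PGCCs the log2 differences to parental cells were -1.65 for Hey and -1.48 for SKOV3, both called.

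CCNE1 (chromosome 19, 29811991 to 29824312), the cyclin E1 gene and a known site of gene amplification in ovarian cancer, had 3.84 TPM in parental, 6.04 TPM in PGCC and 18.5 TPM in daughter RNA of Hey. The SKOV3 libraries had 20.1, 14.7 and 15.9 TPM. Its log2 differences of PGCCs to parental cells were 0.54 (Hey) and -0.43 (SKOV3), neither of them called. The largest change of CCNE1 was that of Hey daughter cells, 4.82-fold above parental Hey cells by TPM, a level within the range of the SKOV3 libraries.

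The D-type cyclins were not called in the PGCCs of either line. CCND1, the cyclin D1 gene (chromosome 11, 69641156 to 69654474), went from 223 (parental) to 177 (PGCC) and 142 TPM (daughter) in Hey, and from 92.1 to 81.7 and 72.2 TPM in SKOV3. The lowest Hey library lay above the highest SKOV3 library. Its log2 differences of PGCCs to parental cells were -0.34 (Hey) and -0.17 (SKOV3). CCND3, the cyclin D3 gene (chromosome 6, 41934934 to 42050357), had a TPM of 13.7, 14.5 and 13.0 in Hey and of 18.8, 36.3 and 16.7 in SKOV3. Its log2 difference in PGCCs was 0.08 in Hey and 0.91 in SKOV3, the only member with a positive value in SKOV3 PGCCs. CCND2, the cyclin D2 gene (chromosome 12, 4269771 to 4305353), had a TPM of 4.98, 7.49 and 10.9 in Hey and of 0.0154, 0 and 0.0834 in SKOV3, where it was not read as a change.

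Counted together, 6 of the 10 members (CCNA2, CCNB1, CCNB2, CCNE2, CDK1 and CDK2) were called lower in Hey PGCCs than in parental cells, where 5.22% of all genes tested were called lower. None were called higher, against 7.67% of all genes. In SKOV3 PGCCs 3 members (CCNA2, CCNE2 and CDK1) were called lower, where 4.96% of all genes were, and none higher, against 9.94%. The median log2 difference of the 10 members was -1.33 in Hey and -0.65 in SKOV3, beside 0 and 0.02 over all genes tested. The 3 members called in SKOV3 were also called in Hey, and 125 of the 14988 genes were called lower in both lines. The summed TPM of the proliferation markers MKI67, TOP2A and PCNA went the same way, from 466 to 170 in Hey and from 1085 to 459 in SKOV3. MKI67 itself, which marks cycling cells, went from 60.5 TPM to 9.79 TPM in Hey but from 122 to 104 TPM in SKOV3. Whether these markers and the members share a cause was not tested.

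As a test over both lines, limma's moderated test was fitted to log2(TPM + 1) of all genes tested, with state and cell line as terms and 2 residual degrees of freedom. Its error is the disagreement between the lines over all states, daughter cells included, moderated toward that of other genes (5.33 prior degrees of freedom). The SE is thus not the disagreement of the lines in PGCCs against parental cells alone. The GC and length trend described below was not removed before this fit, and its part in the means was not tested. The mean log2 difference between PGCCs and parental cells was -1.77 (SE 0.386) for CDK1, -1.98 (SE 0.487) for CCNA2, -1.57 (SE 0.555) for CCNE2 and -1.42 (SE 0.482) for CCNB2, all negative in both lines. The adjusted p of each member was 1 by limma, with 3 of the 14988 genes (0.02%) under 0.05. At an unadjusted limma p under 0.05 there were 4 members and 409 genes, and the smallest unadjusted limma p of a member was 0.00228, for CDK1. For CCNB1 the mean was -1.37 (SE 0.713), and for CCND1, CCND2, CCND3 and CCNE1 it lay between -0.25 and 0.50, with unadjusted limma p-values of at least 0.272.

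**Figure D2:**
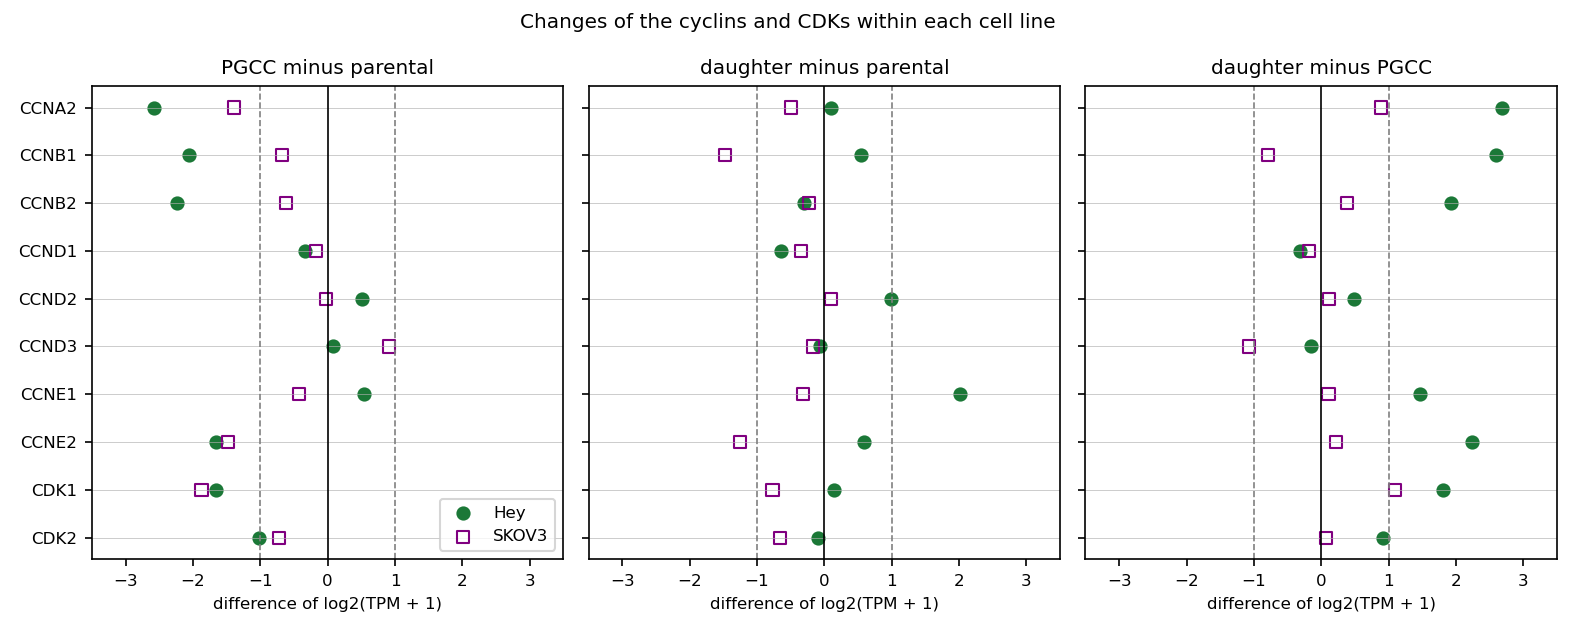
Log2 differences, log2(TPM + 1) of the first-named state minus that of the second (horizontal axes), for the 10 members in 3 comparisons, with filled circles for Hey, open squares for SKOV3 and dashed lines at the 2-fold threshold. In PGCCs minus parental cells the plotted values of CDK1 and CCNE2 nearly coincide in the 2 lines, while CCNB1 and CCNB2 are lower in Hey. In daughter minus parental cells the lines part for CCNB1, CCNE1 and CCNE2. The plot still holds the GC trend described below. Once it is subtracted, CDK1 in PGCCs minus parental cells is at -1.68 (Hey) and -1.13 (SKOV3). CCNE2 is then at -1.63 (Hey) and -0.73 (SKOV3), so these values no longer nearly coincide.

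Daughter cells were next compared with the parental cells, which asks whether the cells that outgrow PGCCs return to the starting levels. This comparison and that with PGCCs share libraries with the comparison above and are not independent of it. In Hey 1 member, CCNE1, was called higher in daughter than in parental cells (log2 difference 2.01), where 6.31% of all genes were, and none were called lower, against 3.73%. CCND2 was just under the threshold, at 0.99. The kinases CDK1 (0.15) and CDK2 (-0.10) and the cyclins CCNA2 (0.10) and CCND3 (-0.07) were close to the parental level in Hey, and for CCNA2 and CCND3 the sign depended on the scaling (-0.03 under median-ratio scaling and 0.003 without mitochondrial genes). The remaining Hey values were 0.54 for CCNB1, -0.31 for CCNB2, -0.65 for CCND1 and 0.58 for CCNE2.

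In SKOV3 daughter cells 2 members, CCNB1 (-1.47) and CCNE2 (-1.26), were called lower than in parental cells, where 6.34% of all genes were, and none were called higher, against 15.1%. The 10 members had a median log2 difference of -0.42 in SKOV3, beside 0.15 over all genes tested, and of 0.12 in Hey, beside 0.05. CDK1 (-0.77), CDK2 (-0.66) and CCNA2 (-0.50) were below the parental level without being called, and CCNB2 was at -0.22. No member had a limma adjusted p under 0.05 over both lines or an unadjusted one under 0.05, while 2 of all genes (0.0133%) had the former and 508 the latter.

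Between daughter cells and PGCCs, 6 members were called higher in Hey daughter cells, where 9.95% of all genes were. They were CCNA2 (log2 difference 2.68), CCNB1 (2.59), CCNE2 (2.24), CCNB2 (1.93), CDK1 (1.81) and CCNE1 (1.47), and CDK2 was at 0.91. None were called lower, against 8.13% of all genes, and CCND1 (-0.32) and CCND3 (-0.15) were the members with negative values. In SKOV3 1 member was called higher, CDK1 (1.10), where 14.6% of all genes were, and 1 lower, CCND3 (-1.08), where 9.25% were. CCNA2 (0.89) came next in SKOV3, CCNB1 stood at -0.79, and CCNE1 (0.11) and CDK2 (0.07) were near 0 with a sign that turned under quantile normalization and median-ratio scaling. By limma over both lines, 0 members and 0 of all genes (0%) had an adjusted p under 0.05, and 3 members (CCNA2, CCNB2 and CDK1) and 758 genes an unadjusted p under 0.05.

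Since TPM is scaled per length, the levels of the members in a library can also be set against each other. CCND1 made up 92.3% of the summed TPM of the 3 D-type cyclins in the parental, 88.9% in the PGCC and 85.6% in the daughter library of Hey. In SKOV3 its share was 83.0%, 69.2% and 81.2%, and CCND3 supplied nearly all the rest, with 30.8% in PGCCs. The log2 difference of SKOV3 PGCCs to parental cells was 0.91 for CCND3 and -0.17 for CCND1. With the GC and length trend described below subtracted, it was 0.19 for CCND3 and -0.31 for CCND1. The summed D-type TPM ranged from 166 to 242 in Hey and from 88.9 to 118 in SKOV3.

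Among E-type cyclins, CCNE1 made up 13.7% of the summed TPM before treatment, 46.2% in PGCCs and 33.4% in daughters in Hey, and 33.8%, 52.2% and 50.0% in SKOV3. In these TPM values the share of CCNE1 was highest in the PGCCs of both lines, where the summed TPM was lowest (13.1 in Hey and 28.2 in SKOV3). In SKOV3 this order rests on the GC trend described next. With it subtracted, the log2 differences to parental cells were -0.59 for CCNE1 and -0.73 for CCNE2 in PGCCs and -0.43 and -1.15 in daughter cells, so that the gap in favour of CCNE1 was wider in the daughter library. CCNB1 and CCNB2 summed to 2.29 TPM for each TPM of CDK1 in parental Hey cells, to 1.67 in their PGCCs and to 2.58 in their daughters. The SKOV3 ratios were 2.93, 6.82 and 2.40. The ratio went down in Hey PGCCs and up in SKOV3 PGCCs, and GC content moved with the SKOV3 value too. Its trend in SKOV3 PGCCs was -0.74 at the GC content and length of CDK1, -0.40 at those of CCNB1 and -0.22 at those of CCNB2. Its part in the ratio was not tested.

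**Figure D3:**
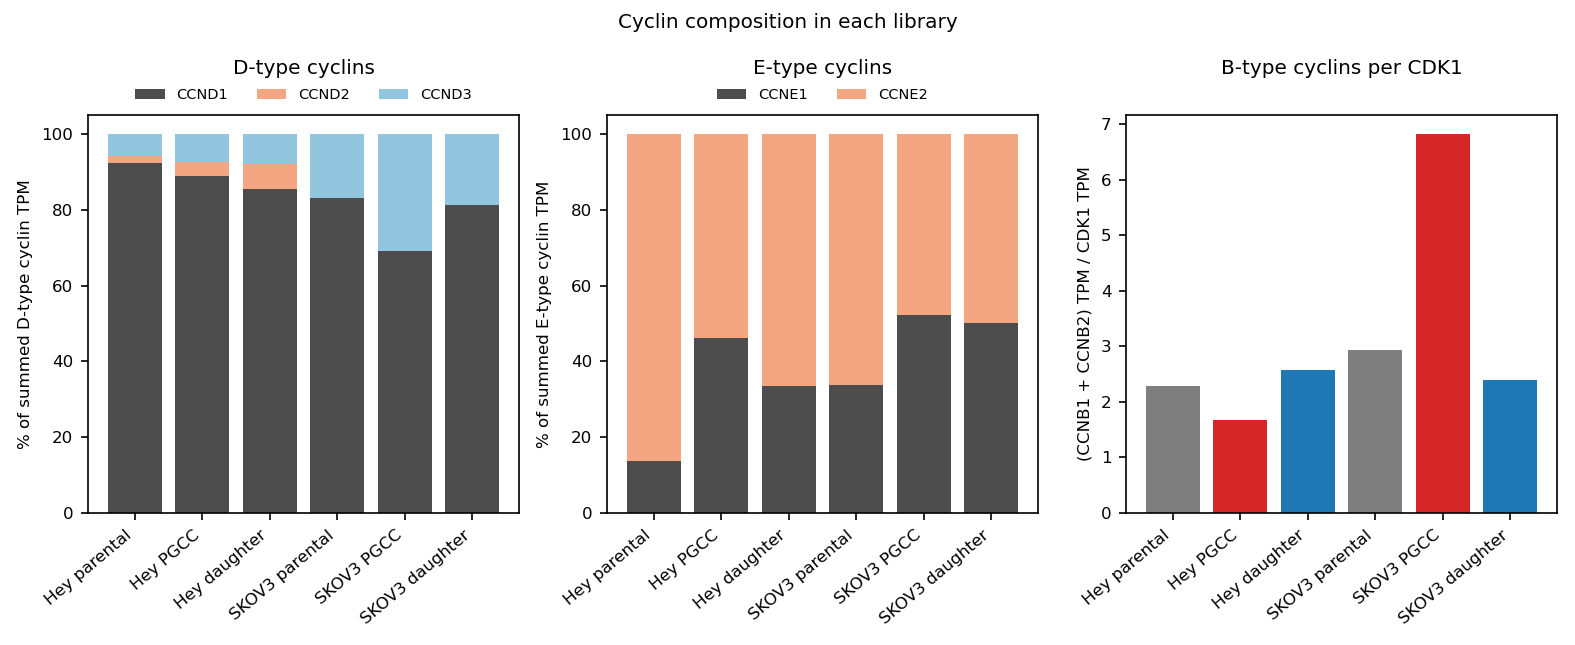
Share of each D-type cyclin (left) and E-type cyclin (middle) in the summed TPM of its type, in percent, and TPM of CCNB1 plus CCNB2 per TPM of CDK1 (right), in each of the 6 libraries. CCND1 is the main D-type cyclin in every library, the CCNE1 share is highest in the PGCCs of each line (in SKOV3 not once the GC trend is subtracted), and the B-type cyclins per CDK1 stand apart in SKOV3 PGCCs at 6.82.

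A property of the SKOV3 PGCC library bears on the members. Across the 13468 genes tested that had a GC content, the change between PGCCs and parental cells increased with transcript GC content in SKOV3 (Spearman correlation 0.72) and not in Hey (-0.04), as a description across genes within a pair of libraries. The members span much of this range. CCNE2 (34.6% GC) and CDK1 (35.4%) are among the genes of low GC content, CCNA2 and CCNB1 lie at 41.9%, CCNB2 at 45.2%, and CCND3 has the highest content of the members at 60.0%. Over all SKOV3 genes the median change was -0.52 at 35% to 40% GC, the bin that holds CDK1, and 0.91 at 60% to 65%.

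With this trend and that in transcript length subtracted, the SKOV3 differences between PGCCs and parental cells were -1.13 for CDK1, -1.01 for CCNA2, -0.73 for CCNE2, -0.39 for CCNB2 and -0.28 for CCNB1. CDK1 and CCNA2 kept their call by this measure and CCNE2 lost it. CCND3, at 0.91 before, was at 0.19. The Hey trend was at most 0.08 in size for any member, and the 6 members called there were still called. The trend also ran through the comparison of SKOV3 daughter cells with PGCCs (Spearman correlation -0.46), where without it CDK1 was at 0.50, CCND3 at -0.63, CCNB1 at -1.14 and CCNE2 at -0.43, the last positive (0.22) with it.

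**Figure D4:**
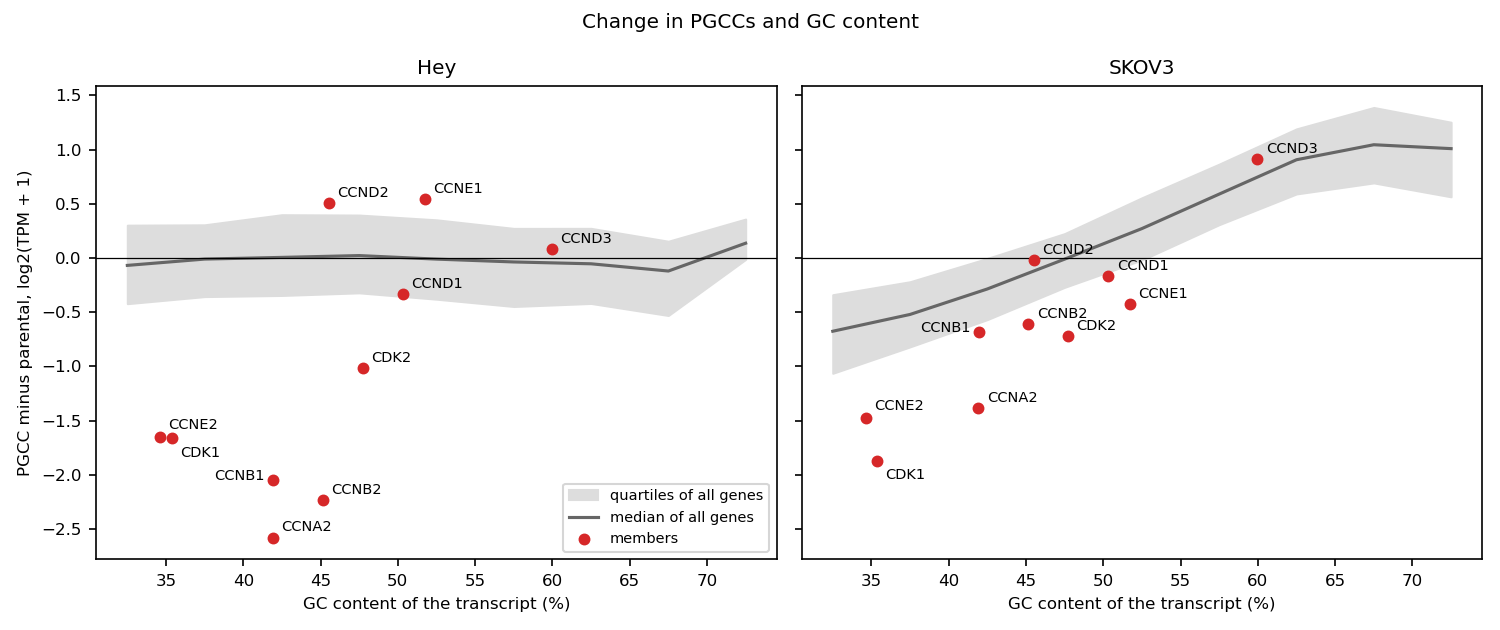
Log2 difference between PGCCs and parental cells (vertical axis) against GC content of the canonical transcript in percent (horizontal axis) in Hey and SKOV3, with the median (line) and quartiles (band) of all genes in bins of 5 percentage points and the 10 members as labelled red points. The median is flat in Hey and climbs in SKOV3, where CDK1, CDK2, CCNA2, CCNB1, CCNB2, CCNE1 and CCNE2 lie below the band, CCND1 lies at its lower edge and CCND3 is the highest of the members.

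The wider machinery around the members was read from a list of 38 regulators of cyclin-CDK activity. Of these, 35 reached the minimum mean TPM of 1, and CCNB3, CDKN2A and CDKN2B did not. In Hey PGCCs 15 of the 38 were called lower than in parental cells and 2 higher, beside 5.22% and 7.67% of all genes tested, with a median log2 difference of -0.78. In SKOV3 PGCCs 5 were called lower and 1 higher, beside 4.96% and 9.94% of all genes, with a median of -0.14. The genes called lower in both lines were CKS1B, a small subunit that binds CDKs (-1.76 in Hey and -1.31 in SKOV3), FBXO5, which encodes the APC/C inhibitor EMI1 (-1.77 and -1.34), and LIN9, a subunit of the MuvB complex (-1.13 and -1.02). With the GC and length trend removed, CKS1B alone of the regulators was called lower in SKOV3.

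Some regulators had opposite signs in the lines, and 3 of them, chosen after their values were seen, are given first. FOXM1, a transcription factor of G2 genes, went from 90.6 (parental) to 18.8 (PGCC) and 137 TPM (daughter) in Hey, and from 74.6 to 101 and 61.6 TPM in SKOV3. CDC20, the activator of the APC/C that marks B-type cyclins for destruction, had a TPM of 127, 31.7 and 202 in Hey and of 329, 476 and 178 in SKOV3. MYBL2 was at 21.5, 5.70 and 60.1 in Hey and at 113, 180 and 103 in SKOV3. These genes were called lower in Hey PGCCs and had positive, uncalled differences in SKOV3 PGCCs, and their transcripts have 55.7% to 60.0% GC. With the trend subtracted, their SKOV3 differences were -0.05 for FOXM1, 0.03 for CDC20 and -0.09 for MYBL2. Other regulators that act in G2 and mitosis were negative in both lines, among them CDC25C (-1.49 in Hey and -0.86 in SKOV3), CDKN3 (-1.55 and -0.95), WEE1 (-1.67 and -0.73) and CKS2 (-0.84 and -1.08). Their SKOV3 differences without the trend were -0.71, -0.55, -0.66 and -0.71 in this order, and CKS2 lost its call there. PKMYT1, an inhibitory kinase, was called in opposite directions (-1.28 in Hey and 1.06 in SKOV3), and CDC25B was at -1.71 and 0.57. With the trend subtracted, the SKOV3 differences were -0.02 for PKMYT1 and -0.14 for CDC25B.

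Inhibitors of the kinases were read beside them. CDKN1A, which encodes p21, rose from 148 TPM in parental to 480 TPM in PGCC RNA of Hey and was at 89.4 TPM in daughter RNA, a log2 difference of 1.70 in PGCCs. In SKOV3 it was low throughout, at 4.76, 6.84 and 3.73 TPM. CDKN1B, which encodes p27, was at 11.8 to 26.3 TPM in the 6 libraries. CDKN2A was at most 0.043 TPM and CDKN2B was listed at 0 in every library. They encode the INK4 inhibitors p16 and p15.

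CDK4 and CDK6, the kinases of D-type cyclins, were not called in the PGCCs of either line. CDK4 was at 224 (parental), 119 (PGCC) and 207 TPM (daughter) in Hey, and at 191, 197 and 157 TPM in SKOV3. CDK6 had a TPM of 36.1, 26.1 and 89.7 in Hey and of 25.6, 16.7 and 42.4 in SKOV3, highest in the daughter cells of both. Between daughter cells and PGCCs, CDK6 was the regulator called higher in both lines (1.74 in Hey and 1.29 in SKOV3), but with the GC and length trend removed it was at 0.77 in SKOV3 and not called. Of the 38 regulators, 18 were called higher and 1 lower in Hey daughter cells than in PGCCs, beside 9.95% and 8.13% of all genes. In SKOV3 3 were called higher and 3 lower, beside 14.6% and 9.25% of all genes. CCNB3 is 1 of the 3 called higher, but its mean TPM of 0.884 is below the minimum, so it is not among the genes tested. With the trend removed, 0 were called higher and 1 lower among the 35 regulators that reached the minimum. Against parental cells 5 of the 38 were called higher and none lower in Hey daughter cells, beside 6.31% and 3.73% of all genes. In SKOV3 daughter cells 1 was called higher and 2 lower, beside 15.1% and 6.34%. The 1 called higher was again CCNB3 (0.0531 TPM in parental and 3.93 TPM in daughter cells), which is not among the genes tested.

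**Figure D5:**
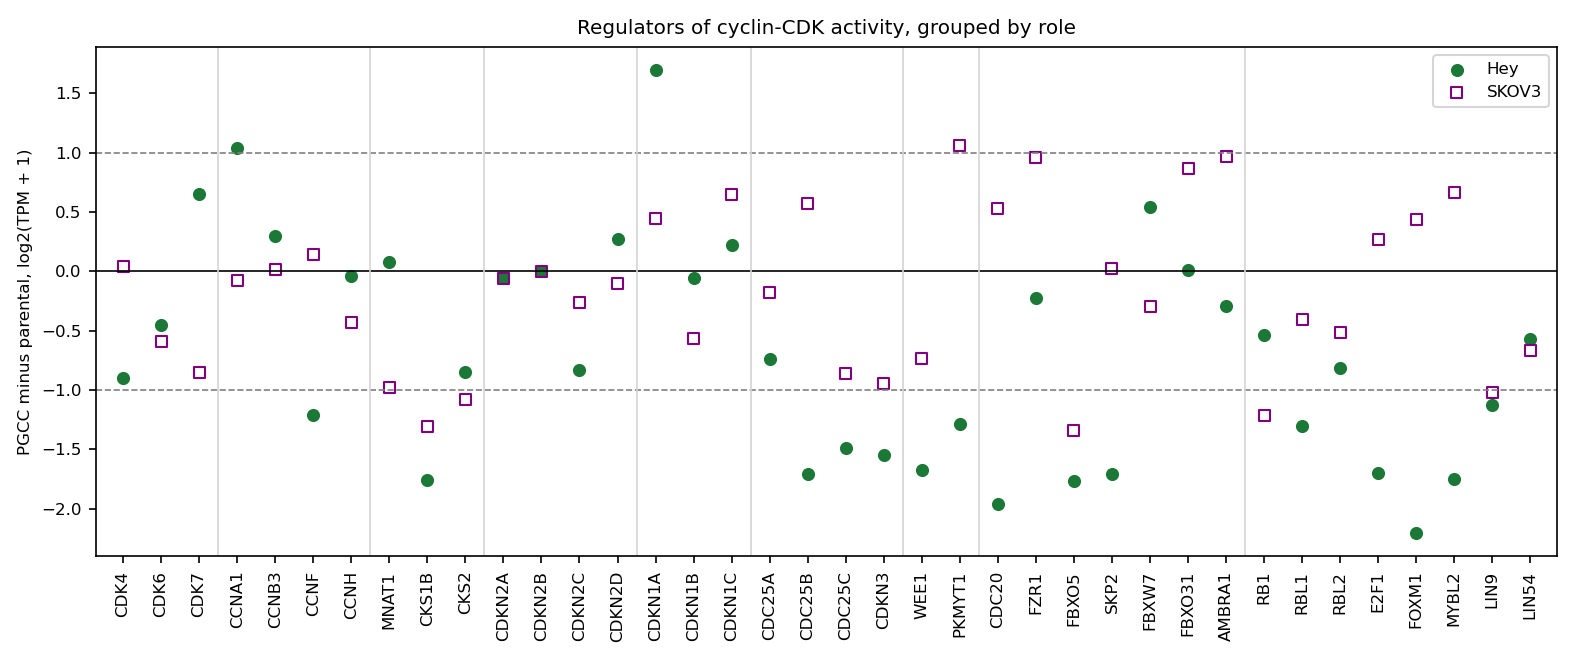
Log2 difference between PGCCs and parental cells (vertical axis) for the 38 regulators in the order of their roles, separated by grey lines (kinases, other cyclins, assembly factors and small subunits, INK4 inhibitors, CIP/KIP inhibitors, phosphatases, inhibitory kinases, degradation, transcription), with filled circles for Hey, open squares for SKOV3 and dashed lines at the 2-fold threshold. FOXM1 and CDC20 are near -2 in Hey and above 0 in SKOV3, CKS1B and FBXO5 are below -1 in both, and CDKN1A is above 1 in Hey.

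A list of 21 cyclins and CDKs that serve transcription or other roles was read in the same way. In Hey PGCCs 1 of them was called lower (CDK10) and none higher, beside 5.22% and 7.67% of all genes. In SKOV3 PGCCs none were called lower and 1 higher (CDK10 again, at 1.14, and at 0.35 with the trend removed), beside 4.96% and 9.94%. Their median log2 difference was -0.06 in Hey and -0.04 in SKOV3. In daughter cells compared with parental cells, CDK14, a kinase of membrane-bound cyclin Y, was called higher in both lines (1.56 in Hey and 1.24 in SKOV3), and CDK17 was called lower in both (-1.24 and -1.02). CDK14 was also called higher in daughter cells than in PGCCs of both lines (2.34 and 1.22), but with the trend removed it was at 0.81 in SKOV3 and not called.

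Genes outside the list with the pattern most like a member were found over 4 differences, those of PGCCs and of daughter cells to parental cells in each line, among 10783 genes whose mean TPM reached 5. Nearest to CDK1 was CENPH, a kinetochore gene, at a root mean square distance of 0.08 on the log2 scale, followed by FAM111B, KIF11, LRRCC1 and NUF2, at up to 0.27. Nearest to CCNE2 was CCDC18 at 0.14, followed by CENPK, ESCO2, FBXO5 and BORA, at up to 0.28. Nearest to CCND1 was the ribosomal protein gene RPL22 at 0.06, followed by PPIL1, ZNRF1, CREB3L2 and METAP1D, at up to 0.11. Among the members themselves the nearest were CCNE2 and CDK1, at 0.38. The GC and length trend was not subtracted from the differences behind these distances. In SKOV3 PGCCs this trend was -0.75 at CCNE2 and -0.74 at CDK1, and its part in the distances was not tested.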

How the data were processed

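RNA was sequenced from 6 cultures, parental cells, PGCCs and daughter cells of 2 lines. The authors trimmed reads with fastp and quantified them with salmon 0.14.1 against hg38, per the labels and the study's methods, and deposited TPM values, 1 per gene symbol and library. The annotation, bias options and the step from transcripts to symbols are not given in the sources used here. The study's methods name both a DNB-Seq and an Illumina run, so the platform is uncertain. The precision of each value is unknown without counts.

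Here log2(TPM + 1) was compared within each line, with no test, and called at a difference of at least 1 among genes whose mean TPM reached 1. limma 3.58.1 (R 4.3.3) was fitted to all 6 libraries with terms for state and line, moderated by eBayes along a trend in mean level, and p-values were adjusted by Benjamini-Hochberg over all genes tested. GC content and length are those of the Ensembl canonical transcript in GENCODE release 44 on GRCh38, matched by symbol for 89.9% of genes tested, and their trend was removed by lowess (fraction 0.3, 2 passes). Python 3.11.15 with pandas 2.3.3 and statsmodels 0.14.6 was used. The steps were run on simulated data with little noise and the same changes in both lines. That run does not show how they perform when the lines disagree as much as they do here.

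Named were all 10 members, CDK4, CDK6 and CDKN1A, list genes called alike in Hey and SKOV3 (up to 6 per list and comparison), and the 5 genes nearest to CDK1, CCNE2 and CCND1 in their changes. FOXM1, CDC20, MYBL2, CDC25B, CDC25C, CDKN3, WEE1, PKMYT1, CKS2, CDKN1B, CDKN2A, CDKN2B, CCNB3 and CDK10 were named after their values were seen. The members and lists were chosen with earlier results of these data known. Marker sets were epithelial (7 genes), leukocyte (4), endothelial (3), fibroblast (4) and proliferation (3), and the fibroblast set summed to at most 27.3 TPM.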

Additional observations from a re-analysis of the deposited data

Results flagged for a closer look

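In 4 instances a member moved in opposite directions in the 2 lines, with the change called in at least 1 of them. With 1 library per condition these differences between the lines were not tested. CCNB1 was higher in daughter than in parental cells of Hey (log2 difference 0.54) and lower in SKOV3 (-1.47). Against PGCCs, CCNB1 was higher in Hey daughter cells (2.59) and lower in SKOV3 daughter cells (-0.79). CCNE1 was higher in daughter than in parental cells of Hey (2.01) and lower in SKOV3 (-0.32). CCNE2 was likewise higher in Hey daughter cells (0.58) and lower in SKOV3 daughter cells (-1.26). After removal of the trend in GC content and length, SKOV3 values against parental cells were -1.40 for CCNB1, -0.43 for CCNE1 and -1.15 for CCNE2.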

How the results depend on the processing

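TPM without counts or replicates limits each value to the size of a change, and low genes such as CCND2 are damped by the pseudocount. Of the 60 differences of members, none that was called changed sign under the alternatives run. For Hey, the number of members called between PGCCs and parental cells or daughter cells stayed within 1.5 times under every setting. For SKOV3 PGCCs against parental cells it was 7 at a 1.5-fold and 1 at a 3-fold threshold, and 2 with the GC and length trend removed. For daughter against parental cells it was 2 in Hey with a pseudocount of 0.1 or without mitochondrial genes (CCND2 added) and 3 at 1.5-fold, and in SKOV3 4 at 1.5-fold and 0 at 3-fold. For SKOV3 daughter cells against PGCCs it was 1 under median-ratio scaling, 1 with the GC and length trend removed, 4 at 1.5-fold and 0 at 3-fold. The member called there with the trend removed was CCNB1 (-1.14), which was not called before. CDK1 (0.50) and CCND3 (-0.63) lost their calls. Leaving out mitochondrial genes moved the all-gene median to 0.11 in Hey PGCCs, and to 0.23 and 0.22 in SKOV3 daughter cells against parental cells and PGCCs, where median-ratio scaling brought it to -0.02 and 0. Over both lines, limma called 0 members in each comparison under every setting, and when each library was left out in turn (0 to 0), which was added after seeing the data. Over all genes the limma count ranged over these settings from 0 to 3, 0 to 105 and 0 to 67 for PGCCs against parental, daughter against parental and daughter cells against PGCCs, with 105 and 67 found when the Hey daughter library was left out. The cause of these changes was not tested beyond what the thresholds themselves set. The fit pairs the states within each line through its cell line term, and without that term it also called 0 members. It was not run with the GC and length trend removed.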
